A study of Mus musculus with 6 samples.

Results

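Expression of 10 genes of cytokine signalling was followed through human leukemia grown in mice: the Janus kinases JAK1, JAK2, JAK3 and TYK2, the transcription factors STAT3, STAT5A and STAT5B, and the STAT5-induced genes SOCS2, CISH and PIM1. They were picked by symbol from a table of 13892 genes. All 10 were present, all 10 passed the filter on low values, and each had between 24 and 2998 reads in every library. The leukemias arose in NSG mice, an immunodeficient strain, from transplanted human blood stem cells into which NPM1c had been transduced, the nucleophosmin mutant of acute myeloid leukemia (AML). Bone marrow was taken from 3 moribund mice, 1 for each of 3 independent transductions. Each marrow gave a bulk leukemic population, sorted as GFP+ and CD33+, and a population called leukemic stem cells (LSC), sorted as GFP+, CD33+ and CD123+. GFP stood for the transgene, and every library of both groups carried NPM1c. The bulk gate did not exclude CD123+ cells, and no normal marrow was used here, so all differences are between 2 leukemic populations. Neither the ages of the mice nor the promoter driving the transgene is given in the sources used here.

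Janus kinases sit on the inner tails of cytokine receptors. When a cytokine such as interleukin 3, GM-CSF or interferon joins receptor chains, the kinases phosphorylate the tails and then STAT proteins, which pair, enter the nucleus and bind DNA. JAK2 serves the interleukin 3 and GM-CSF receptors through their common beta chain, and STAT5 is the main STAT downstream of them in myeloid cells. CISH and SOCS2 are among the genes STAT5 switches on, and their proteins feed back on cytokine receptor signalling. PIM1, a serine and threonine kinase that favours survival, is another target.

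The libraries held 10669560 to 14933494 reads, and 10 MTRNR2L rows, whose sequence resembles mitochondrial ribosomal RNA, took 27.2% to 70.0% of them. Bulk replicate 1 stood apart, with 70.0% on those rows and 3423878 reads left for other genes, against 6132431 to 9571165 elsewhere. Levels are given as CPM, reads scaled to the authors' normalized library sizes, and differences as LSC minus bulk on the log2 CPM scale. CPM is not corrected for transcript length, so levels are compared between libraries and not between genes. The sort marker IL3RA, which encodes CD123, stood at 1.54 to 2.37 CPM in bulk and 48.0 to 139.5 CPM in LSC. CD33 had 4.45 to 13.1 CPM in bulk and 1.17 to 8.05 CPM in LSC, lowest in LSC replicate 3 with 16 reads. In sorted populations measured as a whole, fewer cells of a type and less RNA per cell cannot be told apart.

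CISH showed the largest difference of the 10 genes, and JAK2 the most even one. Within mice 1, 2 and 3, CISH was 6.45, 3.99 and 6.84 times as high in LSC as in bulk cells, and JAK2 was 1.85, 1.92 and 2.14 times as high. TYK2 also had higher values in LSC in 3 of 3 mice and SOCS2 lower ones, while JAK1, JAK3, STAT3, STAT5A, STAT5B and PIM1 took different directions in different mice. No member passed an adjusted p of 0.05 when the mouse was left out of the limma model, where 4.04% of all genes passed in either direction. At an unadjusted p under 0.05 the same model had 3 members (JAK2, SOCS2 and CISH), against 20.2% of all genes, and voom on recovered reads called 0 members at an adjusted p of 0.05. With the mouse as a block, which compares the 2 populations of the same marrow, JAK2 and CISH rose and no member fell, 2 of 10 in either direction against 16.0% of all genes. By direction, 8.25% of all genes rose and 7.71% fell in that model. The share of members called is close to the background, and the members are described below one by one.

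**Figure D1:**
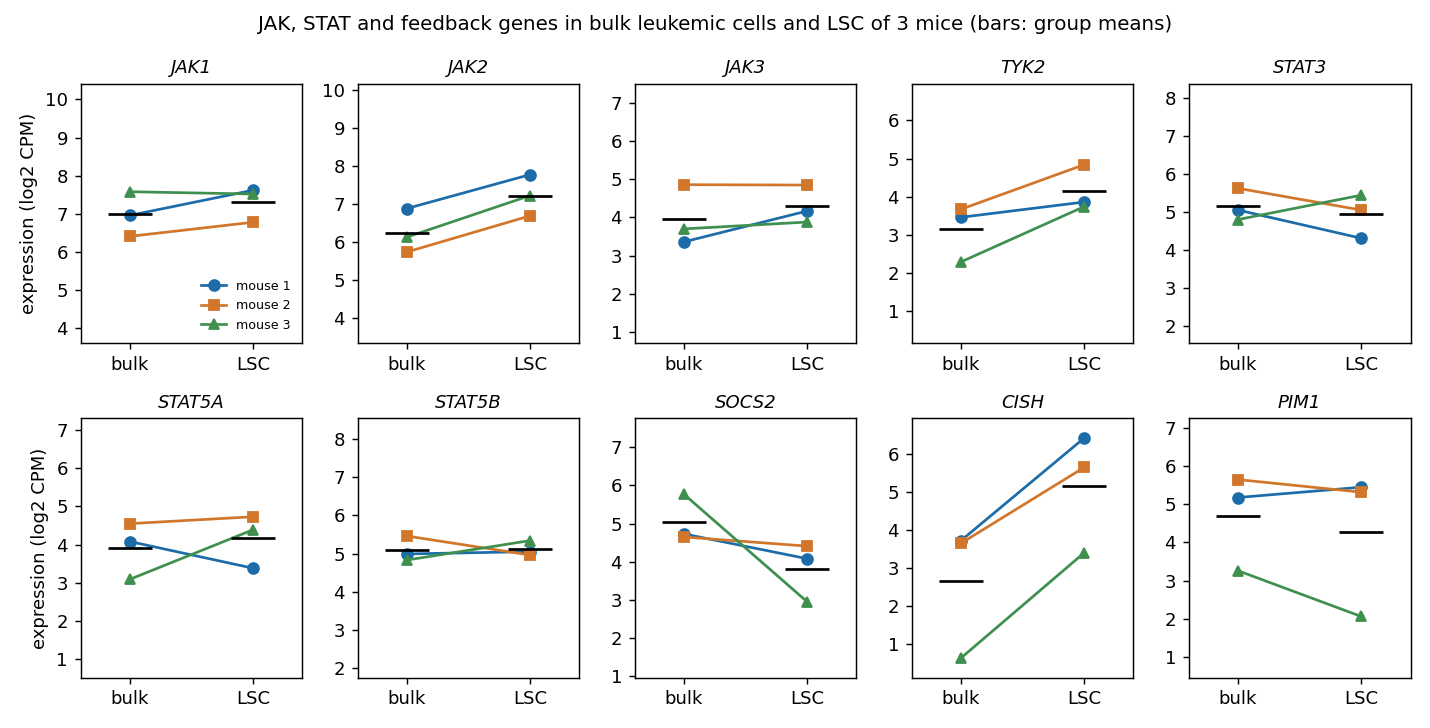
Expression (log2 CPM) of each of the 10 genes in bulk and LSC libraries, with 1 coloured line per mouse and black bars for group means (n = 3). Every panel spans the same number of log2 units. The CISH and JAK2 lines rise in all 3 mice and run nearly parallel, the SOCS2 line falls most in mouse 3, and mouse 3 lies lowest for PIM1 and CISH.

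Among the kinases, JAK2 was the one called. Its level was 117.8, 53.5 and 69.9 CPM in bulk replicates 1, 2 and 3 and 217.8, 102.9 and 149.3 CPM in the LSC libraries of the same mice. The groups overlapped, since bulk replicate 1 exceeded LSC replicate 2, but each LSC library was above the bulk library of its own mouse. The mean difference was 0.97 on the log2 scale, or 1.96-fold. Its standard error was 0.39 without the block (limma adjusted p = 0.199) and 0.19 with it (adjusted p = 0.0129, 95% interval 0.53 to 1.42). With the block, the adjusted p was 0.0880 without mouse 1 and 0.0880 without mouse 2, so the call was lost in both cases. It was kept without mouse 3 (0.00107). The differences were alike, at 1.02 (SE 0.30), 0.99 (SE 0.27) and 0.91 (SE 0.23) without mouse 1, 2 and 3. Each of these fits rested on 2 mice, with little left to estimate the spread, so their p-values do not rank the mice.

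TYK2, the kinase of interferon and interleukin 12 type receptors, had 10.96, 12.7 and 4.86 CPM in bulk and 14.5, 28.7 and 13.3 CPM in LSC. The lowest LSC value, in replicate 3, was above the highest bulk value, in replicate 2, so the groups did not overlap. This held for 25.2% of all genes tested. The mean difference of 1.01 (SE 0.49) did not pass (adjusted p = 0.284, and 0.0704 with the block). By mouse it was 0.40, 1.18 and 1.45. At these depths TYK2 rested on 64 to 453 reads per library, the fewest in bulk replicate 1.

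JAK1, the kinase shared by interferon, gp130 and common gamma chain receptors, had 124.5, 85.3 and 191.8 CPM in bulk and 197.2, 109.9 and 183.9 CPM in LSC. Mouse 2 was lowest in both populations, and mouse 3 showed almost no difference (-0.06), against 0.66 and 0.37 in mice 1 and 2. JAK3, which pairs with the common gamma chain of lymphoid receptors, had 10.3, 29.0 and 12.99 CPM in bulk and 18.03, 28.8 and 14.7 CPM in LSC. Mouse 2 was highest in both. Neither gene passed. The difference was 0.32 for JAK1 (95% interval -0.16 to 0.80 with the block, adjusted p = 0.330) and 0.33 for JAK3 (-0.34 to 0.99, adjusted p = 0.478), and without the block the intervals were wider, at -0.51 to 1.15 and -0.72 to 1.37. A difference of 1 log2 unit is therefore inside both unblocked intervals.

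The 3 STAT genes did not differ between populations beyond the spread between libraries, and their direction depended on the mouse. STAT3, which acts downstream of gp130 and G-CSF receptors, had 33.04, 49.0 and 27.8 CPM in bulk and 19.9, 33.2 and 43.4 CPM in LSC. It was lower in LSC in mice 1 and 2 (-0.73 and -0.56) and higher in mouse 3 (0.64). STAT5A had 16.9, 23.5 and 8.51 CPM in bulk and 10.4, 26.5 and 21.0 CPM in LSC, with differences of -0.70, 0.18 and 1.30. STAT5B had 31.8, 44.0 and 28.5 CPM in bulk and 33.03, 31.1 and 40.6 CPM in LSC, with differences of 0.05, -0.50 and 0.51. Each of the 3 genes had its most positive difference in mouse 3. With 1 library per population in a mouse, a change that differs between mice could not be tested.

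Mean differences were -0.22 for STAT3, 0.26 for STAT5A and 0.02 for STAT5B, with adjusted p of 0.787, 0.803 and 0.977 (0.669, 0.686 and 0.968 with the block). Without both libraries of mouse 3 they were -0.65, -0.26 and -0.22, so the sign for STAT5A and STAT5B turned. STAT5B also turned with upper-quartile rescaling (-0.03) and quantile normalization (-0.06). The 95% intervals with the block were -0.92 to 0.49, -0.62 to 1.14 and -0.59 to 0.63, which leaves differences of up to about 1 log2 unit unresolved for STAT5A. STAT5A and STAT5B are neighbouring genes with closely similar coding sequence, and reads may have been divided between them unevenly. Summed, they stood at 48.8, 67.5 and 37.0 CPM in bulk and 43.4, 57.6 and 61.6 CPM in LSC. The sum changed by -0.17, -0.23 and 0.74 log2 units in mice 1, 2 and 3, so the contrast between mouse 3 and the others was there in the sum as well.

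CISH, an SH2-domain inhibitor of STAT5-activating receptors, had 13.2, 12.5 and 1.54 CPM in bulk replicates 1, 2 and 3 and 85.1, 50.02 and 10.5 CPM in LSC. Its level was lowest in mouse 3 in both populations, with 24 reads in bulk and 144 in LSC. For that reason the groups overlapped: LSC replicate 3 lay below bulk replicates 1 and 2. The step from bulk to LSC was nonetheless of similar size in each marrow, at 2.69, 1.99 and 2.76 log2 units. The mean of 2.48 (5.58-fold) did not pass without the block (SE 0.94, adjusted p = 0.186) and passed with it (SE 0.30, adjusted p = 0.00155, 95% interval 1.79 to 3.17). The blocked call was kept without mouse 1 (adjusted p = 0.0244), without mouse 2 (0.0184) and without mouse 3 (1.64e-10), each time on 4 libraries with little left to estimate the spread. Without mouse 3, CISH also passed in the model that leaves the mouse out (adjusted p = 0.0276).

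SOCS2, which restrains growth hormone and related receptors, went the other way. It had 26.5, 25.1 and 54.7 CPM in bulk and 16.8, 21.2 and 7.73 CPM in LSC. The highest LSC library was below the lowest bulk library, so the groups did not overlap. Mouse 3 held both the highest and the lowest value, and its difference of -2.82 stood against -0.65 and -0.24 in mice 1 and 2. The mean difference of -1.24 (SE 0.47) did not pass without the block (adjusted p = 0.187) or with it (SE 0.46, adjusted p = 0.0991). Without both libraries of mouse 3 it was -0.45.

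Markers of B lineage cells followed SOCS2 between the populations and in bulk replicate 3, but not among the LSC libraries. The summed level of 10 such genes was 299.3, 201.2 and 1467 CPM in bulk replicates 1, 2 and 3, highest where SOCS2 was highest. In LSC it was 74.4, 48.4 and 64.7 CPM, lowest in replicate 2 where SOCS2 was highest of the 3. Of the 9 that could be tested 2 fell without the block and 6 with it, and none of the 10 was without reads in either group. Their part in the SOCS2 values was not tested.

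The 2 inhibitors, both known as STAT5 targets, therefore moved apart within each marrow. Measured as the log2 ratio of CISH to SOCS2 in the same library, the shift from bulk to LSC was 3.34 in mouse 1, 2.24 in mouse 2 and 5.58 in mouse 3. The ratio was -1.01, -1.0 and -5.14 in bulk and 2.33, 1.24 and 0.44 in LSC. Every LSC ratio was above every bulk ratio. With 3 libraries against 3 an exact permutation test cannot give a p under 0.1, and the pair was chosen after its values were seen, so no test is given.

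PIM1 showed no common shift between populations. Its level was 36.3, 50.1 and 9.53 CPM in bulk and 43.7, 39.8 and 4.16 CPM in LSC. Both libraries of mouse 3 were below all 4 others. The mean difference was -0.42 (SE 0.92, adjusted p = 0.829, and 0.412 with the block), made of 0.27, -0.33 and -1.19 in the 3 mice. It was -0.03 with the block and without mouse 3, and 0.69 without LSC replicate 3 alone.

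**Figure D2:**
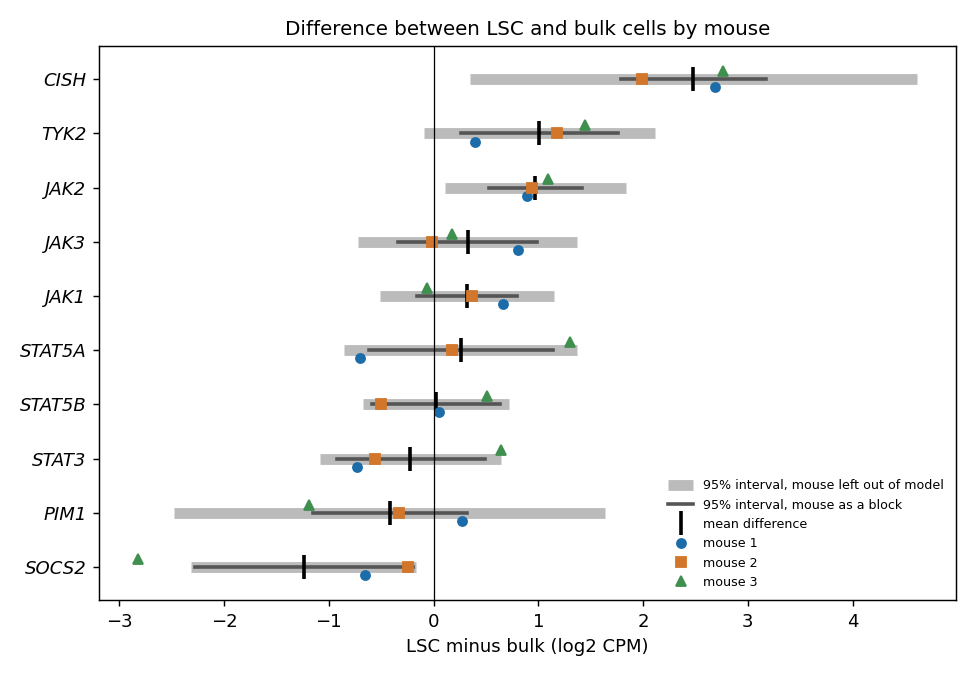
Difference between LSC and bulk cells (log2 CPM) for each gene, ordered by the mean. Coloured symbols are the 3 mice, black ticks the means, and bars the 95% intervals of limma without (wide, pale) and with (narrow, dark) the mouse as a block. The interval of CISH narrows from 0.35 to 4.61 without the block to 1.79 to 3.17 with it, while that of SOCS2 hardly changes, and its 3 mice lie from -2.82 to -0.24.

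How the variation was divided between mice and populations differed from gene to gene. As a share of the sum of squares of log2 CPM over the 6 libraries, PIM1 had 92.6% between mice and 2.42% between populations. JAK3 had 81.7% and 8.61%, and JAK1 77.2% and 12.3%. CISH had 53.8% between mice and 45.4% between populations, with 0.875% left over, and JAK2 46.4% and 53.2%, with 0.430% left over. SOCS2 was the opposite of PIM1, with 0.682% between mice, 54.2% between populations and 45.1% left over. For STAT5B 87.0% belonged to neither. Over all genes tested the median share was 43.8% between mice and 26.8% between populations, and 4 of the 10 members had over 50% between mice, against 42.7% of all genes. These shares are not adjusted for 3 mice against 2 populations.

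**Figure D3:**
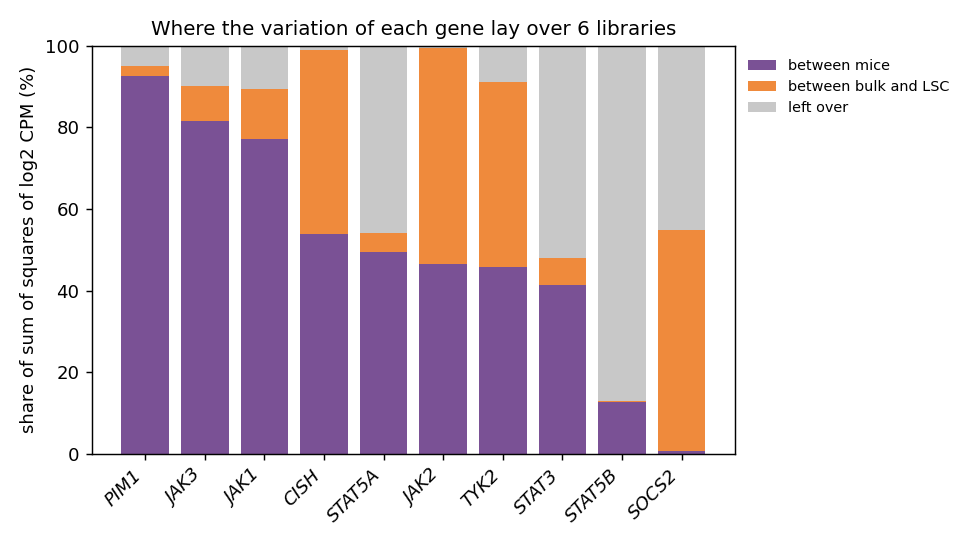
Share of the sum of squares of log2 CPM (%, stacked to 100) that lay between mice, between bulk and LSC, or in neither, for each gene over 6 libraries, ordered by the share between mice. PIM1 is at the left end with 92.6% between mice and SOCS2 at the right end with 0.682%.

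A test of the mouse term in the blocked model, added after the values were seen, called 2 members, CISH and PIM1 (limma adjusted p = 0.0155 and 0.0200), against 1.56% of all genes. JAK2 and JAK1 were not called in that fit (adjusted p = 0.0841 and 0.129). The count depended on single libraries. It was 0 when either library of mouse 1 or either library of mouse 2 was left out, 7 when either library of mouse 3 was, and 0 with eBayes without trend. With array weights it was 3, and JAK2 passed as well (adjusted p = 0.0378). Without bulk replicate 3 the F statistic of the mouse term fell for JAK1 (5.55, against 7.28 with all libraries). It also fell for TYK2 (2.42 against 4.71) and CISH (24.7 against 39.7), and rose for the other members. JAK1 passed there at the lower F, so counts with a library left out do not measure the size of the mouse term. Sums of several marker lists were lowest in mouse 3 in both populations, while that of monocyte markers was lowest there in LSC only. Granule and neutrophil markers summed to 4515, 8637 and 4334 CPM in bulk replicates 1, 2 and 3 and to 1784, 3578 and 1048.5 CPM in LSC. LYZ made up much of the bulk sums, at 2505, 4500 and 3976 CPM, and like S100A12 was lowest there in mouse 1. In LSC, S100A12 was lowest in mouse 1, and FCGR3B and CAMP in mouse 2. The other genes of that list were lowest in mouse 3 in both populations. Erythroid markers summed to 776.3, 614.1 and 180.2 CPM in bulk and to 121.4, 179.6 and 56.9 CPM in LSC. The summed level of 9 eosinophil, basophil and mast cell genes was 649.9, 1568 and 186.2 CPM in bulk replicates 1, 2 and 3 and 191.0, 386.5 and 99.6 CPM in LSC, with no gene of the 9 called lower without the block and 5 of 9 called lower with it. All 9 had reads in both groups, and 7 of them were lowest in mouse 3 in both populations. The exceptions, named after their values were seen, were CLC (34.2, 115.3 and 49.4 CPM in LSC) and MS4A2 (9.68, 32.8 and 17.6 CPM in LSC). Monocyte markers summed to 725.6, 683.1 and 1076 CPM in bulk, highest in replicate 3, and to 231.3, 329.0 and 123.4 CPM in LSC. The part of these cells in the PIM1 and CISH values was not tested.

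Other genes of the pathway were examined from 9 lists holding 92 genes, of which 86 were in the table and tested. Without the block 8 rose and 1 fell, and with it 15 rose and 7 fell. Of all genes tested, 4.04% passed in either direction without the block, and 8.25% rose and 7.71% fell with it. These shares also stand beside the counts of single lists below. The median difference of the 86 genes was 0.28, that of the 10 members 0.29 and that of all genes tested close to 0 (-0.004). Of the 9 unblocked calls, those of IL3RA, STAT2 and CDKN1A were kept when any 1 library was left out. Those of CSF2RB (without LSC replicate 1 or 3), MYC (without bulk replicate 1 or 3), IFNLR1 (without any LSC library), SH2B3 (without bulk replicate 1, or LSC replicate 1 or 3), PTPN2 (those 3 or bulk replicate 2) and IL10RA (any but bulk replicate 3) were lost, at an adjusted p of up to 0.153. With the block, all of these but IL10RA also passed without any 1 mouse. The genes named below as passing with the block only lost that call without mouse 1, without mouse 2 or in both cases, except CSF3R. Blocked fits with a mouse left out have little left to estimate the spread.

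Receptor chains that use JAK2 were higher in LSC next to JAK2 itself. Of 4 interleukin 3 and beta-common chains 2 rose, IL3RA, which the sort selected, and CSF2RB, the beta chain, and CSF2RA, the GM-CSF alpha chain, passed with the block only. CSF2RB had 28.8, 36.2 and 18.7 CPM in bulk and 176.3, 84.6 and 130.8 CPM in LSC (difference 2.21, SE 0.37, adjusted p = 0.0142). IL5RA did not pass (-1.06, adjusted p = 0.384). Of 9 interferon, interleukin 10 and interleukin 12 receptor genes 2 rose without the block, IFNLR1 (3.31, SE 0.62, adjusted p = 0.0216) and IL10RA (1.63, SE 0.36, adjusted p = 0.0376), and IFNAR2 and IL12RB1 passed with it, which made 4.

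Receptors of granulocyte and lymphoid growth factors did not share this pattern. Of 11 gp130 family and growth hormone type receptors none passed without the block, and CSF3R, the G-CSF receptor, fell with it (-2.05, adjusted p = 0.00160). CSF3R, also 1 of the granule markers below, had 79.4, 129.2 and 18.9 CPM in bulk and 23.9, 28.8 and 3.94 CPM in LSC. Of 9 common gamma chain and related receptors none passed without the block and IL15RA fell with it (-3.25, adjusted p = 0.0485). CRLF2, a receptor for thymic stromal lymphopoietin, had a mean difference of 2.97 that passed in neither model (adjusted p = 0.174 and 0.0675). By mouse the CRLF2 difference was 6.39, 2.12 and 0.39, and bulk replicate 1 held 1 read.

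Among the other STAT genes, STAT2 rose (1.73, SE 0.29, adjusted p = 0.0139), from 51.3 to 71.6 CPM in bulk to 175.9 to 273.2 CPM in LSC. IRF9, its partner in the interferon response, rose with the block (0.97, adjusted p = 0.0452). STAT4 and STAT6 had differences of 1.59 and 0.64 and did not pass (adjusted p = 0.0627 and 0.0833 with the block). All 5 genes of this list had higher values in LSC in 3 of 3 mice. A single direction in all 3 mice occurred in 53.2% of all genes and in 4 of the 10 members.

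Inhibitors of the pathway were mixed. SOCS3, a STAT3-induced inhibitor of gp130 receptors, had 2.40, 3.64 and 0.576 CPM in bulk and 25.8, 19.0 and 1.68 CPM in LSC. It resembled CISH in being higher in LSC in each mouse (3.42, 2.37 and 1.51) and lowest in mouse 3, and it rose with the block only (2.43, adjusted p = 0.0152, against 0.238). SOCS4, SOCS5 and SOCS7 had differences of -0.57, 0.45 and -0.84 and passed in neither model. Of 13 phosphatases, PIAS proteins and other brakes 2 rose in both models. PTPN2, a phosphatase that acts on JAK1, JAK3 and STAT proteins, rose by 1.48 (SE 0.28, adjusted p = 0.0235), from 72.3 to 94.3 CPM in bulk to 171.4 to 272.0 CPM in LSC. SH2B3, the adaptor LNK that restrains JAK2, rose by 1.70 (SE 0.29, adjusted p = 0.0158), from 29.4 to 44.9 CPM to 103.0 to 143.0 CPM. PTPN1 and PTPN11 had differences of 0.82 and -0.64 and did not pass (adjusted p = 0.0811 and 0.0549 with the block).

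Genes that STAT3 and STAT5 can induce went both ways as well. Of 19 tested, CDKN1A, the cell cycle inhibitor p21, rose (3.39, SE 0.51, adjusted p = 0.00805) and MYC fell (-2.75, adjusted p = 0.0235). With the block IL10 also rose (1.69, adjusted p = 0.0159) and VEGFA and HIF1A fell (-1.85 and -1.12, adjusted p = 0.0107 and 0.00805). PIM2, a relative of PIM1, had 6.33, 5.59 and 9.02 CPM in bulk and 25.6, 24.1 and 8.75 CPM in LSC. Its difference was 2.01 and 2.10 in mice 1 and 2 and -0.04 in mouse 3, and the mean of 1.36 did not pass (adjusted p = 0.165, and 0.0749 with the block). Of 11 receptor adaptors and JAK partners none passed without the block, while with it the kinase LYN rose (1.24, adjusted p = 0.0336) and SOS2 and PIK3R1 fell (-0.77 and -0.95, adjusted p = 0.0361 and 0.0168).

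**Figure D4:**
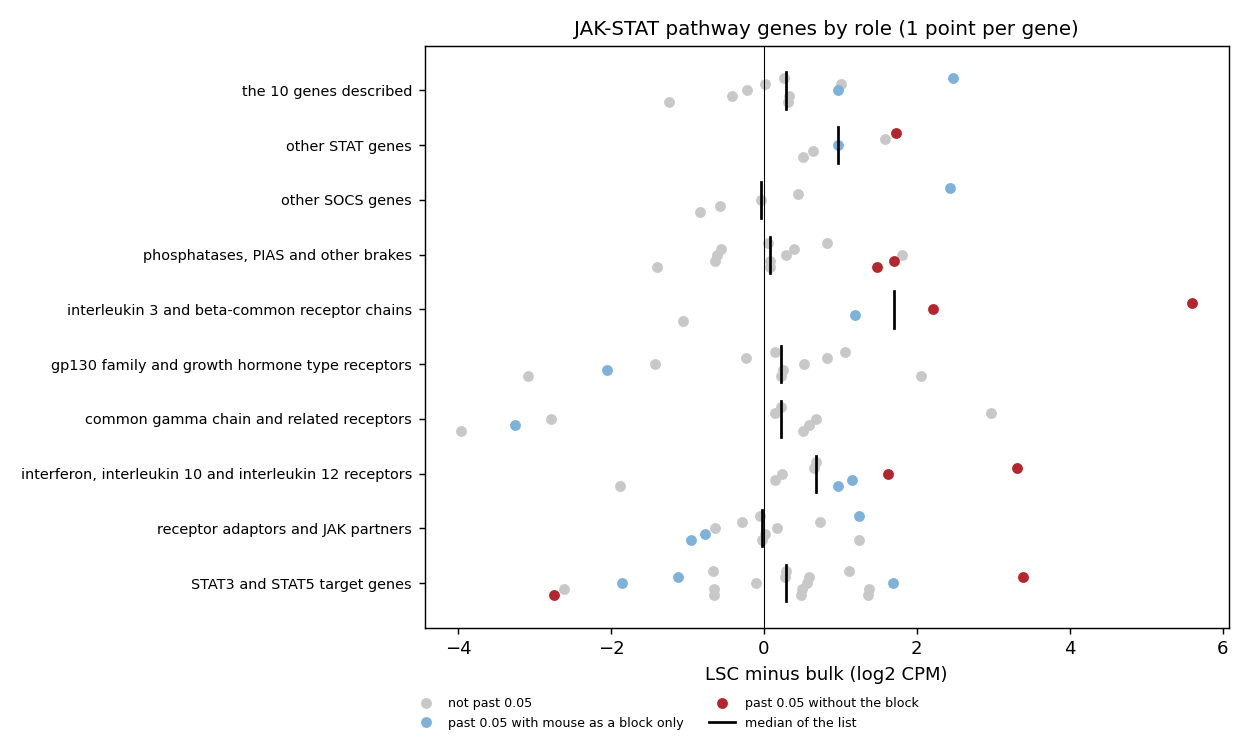
Difference between LSC and bulk cells (log2 CPM), 1 point per gene, for the 10 genes described and 9 lists of other JAK-STAT pathway genes. Red points passed an adjusted p of 0.05 without the block, blue points with the mouse as a block only, grey points in neither, and black bars are list medians. CISH (2.48) and SOCS3 (2.43) stand to the right of the other members of their rows, and the interleukin 3 receptor row has the highest median, 1.70.

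Markers of plasmacytoid dendritic cells, which carry CD123, moved with these results. Of 17 such markers 13 rose without the block and 16 with it, and their summed level was 151.5 to 496.8 CPM in bulk and 1975 to 3250.5 CPM in LSC. IL3RA is 1 of the 17 and the gate selected it. None of the 17 was without reads in bulk, although LILRA4 had 1 read over the 3 bulk libraries. Genes of the G2 and M phases moved the other way, with 5 of 12 lower without the block and 8 with it, and sums of 3469 to 6951 CPM in bulk and 859.5 to 1468 CPM in LSC. Granule and neutrophil markers summed to 4334 to 8637 CPM in bulk and 1048.5 to 3578 CPM in LSC, with 0 of 14 lower without the block and 10 with it. Erythroid markers summed to 180.2 to 776.3 CPM and 56.9 to 179.6 CPM (2 of 9 lower, and 7 with the block), and monocyte markers to 683.1 to 1076 CPM and 123.4 to 329.0 CPM (1 of 6 lower, and 2 with the block). T and NK cell markers had sums of 80.8 to 117.1 and 111.8 to 140.9 CPM, and 0 of 8 passed in either model. Beside the marker counts here and above, 4.04% of all genes passed in either direction without the block and 16.0% with it. The part of these cell types in the CISH, JAK2 and SOCS2 values was not tested.

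Genes whose pattern over the 6 libraries was most like that of the 2 called members were listed by Pearson correlation of log2 CPM, as a description. For CISH they were DDX24 (r = 0.993), UBE2G2 (0.992) and EML2 (0.992), and for JAK2 they were NCOA1 (0.989), FEZ2 (0.985) and ATP5E (0.981). With 6 libraries from 3 mice and 13755 genes, values this high are easily found. UBE2G2 had, like CISH, its lowest levels in mouse 3 and higher levels in LSC of each mouse, at 6.12, 6.0 and 4.87 log2 CPM in bulk and 6.92, 6.87 and 6.03 in LSC. Between members, the closest pairs were TYK2 and CISH (r = 0.85), STAT3 and STAT5A (0.75) and TYK2 and STAT5A (0.74), while JAK1 and STAT5A ran most opposite (-0.74). These pairs share libraries and depth.

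In the authors' deposited table none of the 10 members had a false discovery rate under 0.05. The lowest was that of CISH, at 0.249 with a p of 0.0119, followed by SOCS2 at 0.462 and JAK2 at 0.468. The log2 fold changes of the authors' deposited table, coded bulk minus LSC, were -2.48, 1.20 and -0.97 for these 3 genes. That table was made from the same libraries and is not separate support.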

How the data were processed

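Sorted marrow cells gave RNA that a NuGEN Ovation kit amplified as cDNA ahead of Illumina sequencing (labels' protocols). RSEM, Bowtie2, edgeR and hg19 are named, without versions or roles, per the submitters' processing notes. The authors' deposited values are log2 CPM with a small prior. The deposited table also gives a likelihood ratio score, a p-value and a log2 fold change per gene. Removing the shared floor (0.0197 CPM) and dividing by the step of 1 read gave reads, whole within 0.1 for 100% of values, since RSEM estimates may have been rounded. CPM in the text are these reads rescaled. A value of 3 reads equals 0.190 to 0.514 CPM. Amplified reads are not independent molecules.

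Of 13892 genes, 13755 reached 1 CPM in 3 or more libraries and were tested. The comparison of LSC with bulk (n = 3 each) used R 4.3.3 and limma 3.58.1 (lmFit, eBayes with trend, two-sided, Benjamini-Hochberg over all genes, threshold 0.05). Equal numbers mark a shared mouse per the labels, and their deviations from group means correlated at 0.327, 0.350 and 0.302 over genes. The fit with the mouse as a block is given where it matters. Named genes are the 10 members, IL3RA and CD33, list genes called in either model, up to 4 per list with the largest moderated statistic, and the 3 best-correlated genes of each called member. Members and lists were chosen with earlier results of these data known. The code was tested on simulated reads. Alternatives were other pseudocounts (1 and 5 CPM), filters, scalings, variance models, voom, a random mouse effect (correlation 0.431) and left-out libraries. The mouse term, and the block on 2 mice, were added after seeing the data. The reference at hand is of mouse, so no coordinates or sequences are printed.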

Additional observations from a re-analysis of the deposited data

How the results depend on the processing

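With the mouse as a replicate block 2 members were called higher in LSC, against 0 without it. The count was also 2 with the mouse as a random effect and with voom plus the replicate block, and 0 to 2 when a library or a mouse was left out. No member was called lower under any of the 25 alternatives. Among the other pathway genes 8 were higher and 1 lower. The counts were 15 and 7 with the replicate block, 14 and 6 with the random effect, and 16 and 8 with voom plus the replicate block. They were 2 higher with eBayes without trend, 2 lower with log2(CPM + 1) and 2 lower with log2(CPM + 5). Leaving out a library or a mouse gave 1 to 9 higher and 0 to 1 lower without the block, and 7 to 32 higher and 2 to 12 lower with it, most without mouse 3. The mouse term passed in 2 members, in 0 with eBayes without trend, in 3 with array weights and in 0 to 7 without 1 library. CISH and JAK2 were positive in all 25 alternatives, CISH between 1.46 and 3.36 and JAK2 between 0.70 and 1.29, and SOCS2 was negative in all 25, between -1.74 and -0.45. Signs turned for STAT5B with upper-quartile rescaling (-0.03), quantile normalization (-0.06), array weights (-0.01) and without single libraries or a mouse (-0.22 to 0.28), for STAT3 without libraries (-0.65 to 0.09, and 0.04 with the block and without mouse 1), for STAT5A (-0.26 to 0.74) and for PIM1 (-1.14 to 0.69). None of these 4 genes was called in any alternative. The cause of these shifts was not tested. Depth limited bulk replicate 1 most, where 3 reads equal 0.514 CPM.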
